A study of Homo sapiens with 24 samples.

Results

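The HOX cluster genes were taken as the 39 protein-coding genes whose symbol was HOX, a cluster letter from A to D and a paralog number, out of 62703 gene identifiers in the count files. They were read in 24 RNA-seq libraries of T/C-28a2, an immortalised human chondrocyte line, in 6 groups of 4. Wild-type (WT) cells were kept in isotonic medium (300 mOsm, WT Ctr) or for 7 days in medium made hyperosmotic with 100 mM sorbitol (400 mOsm, WT Sor), both with 2% serum. Cells labelled WNK2 trans had been lipofected with a plasmid carrying the wild-type kinase gene WNK2 before the same isotonic (WNK2 trans Ctr) or sorbitol (WNK2 trans Sor) medium, and the untransfected WT cells were their controls, so plasmid, transfection and WNK2 cannot be told apart. Cells labelled WNK2- (WNK2- Ctr, WNK2- Sor) came from clonal lines grown after Cas9 and guide RNA complexes removed exon 2 of WNK2, so the deletion and the history of the clones cannot be told apart. The study's methods call the libraries of a group biological replicates, but the labels do not say whether they came from separate cultures, and p-values measure the spread between these libraries.

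HOX genes encode homeodomain transcription factors that lie in 4 chromosomal clusters, HOXA to HOXD, and are numbered 1 to 13 by paralog group along each cluster. In the embryo, low-numbered genes are used towards the head and high-numbered genes towards the tail and the tip of the limbs, and skeletal and stromal cells in culture keep much of the pattern of the body site they came from. HOX proteins bind DNA with cofactors of the TALE class, Polycomb complexes hold unused HOX genes silent, and MLL/trithorax complexes keep used ones active.

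Total counts ran from 14153002 to 25664619 per library. The WNK2 counts went against the labels. WT Ctr libraries averaged 2520 ± 901 normalised counts (SD, n = 4) and WNK2 trans Ctr libraries 252 ± 52.8. The other groups averaged 302.5 ± 19.0 for WT Sor, 3033 ± 706.5 for WNK2 trans Sor, 406.5 ± 13.9 for WNK2- Ctr and 359.5 ± 46.1 for WNK2- Sor. The WT Sor mean lay below those of the deletion lines (log2 fold change of WNK2- Sor 0.25 ± 0.20, edgeR adjusted p = 0.330), where reads outside exon 2 are still counted. This touches the comparisons with WT Sor as well as those with an isotonic group. Normalised counts are read counts put on a common library size by edgeR's TMM factors. Groups are therefore named as the libraries labelled so, and most calls that rest on WT Ctr or WNK2 trans Ctr are also given, by gene or as counts, against the other. WNK2- Sor is likewise given against WNK2 trans Sor beside WT Sor for HOX calls and for counts of the gene lists. The chondrocyte label was read against 12 markers. SOX9 and CHAD were listed at 0, but both lie wholly inside other annotated genes. Nearly all such genes were at 0 here, as given below, so no level of SOX9 or CHAD was measured. COL2A1 and ACAN averaged 4.50 and 3.25 CPM (counts scaled to library size) in WT Ctr, 9.76 and 8.47 in WNK2 trans Ctr, their highest group means, and 1.31 and 1.63 in WNK2 trans Sor, and HAPLN1 group means ran from 13.8 to 117.5 CPM. The 6 markers of fibroblasts or dedifferentiated chondrocytes summed to 1034 to 7278 CPM, and the 3 leukocyte markers to at most 0.521 CPM. Of these, THY1 and CD68 were also at 0 and wholly inside other genes.

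Of the 39 HOX genes, 17 were listed at 0 in all 24 libraries, 6 had a few counts, and 16 had enough counts to be tested. The 17 were HOXA4, HOXA5, HOXA6, HOXA10, HOXB3, HOXB4, HOXB5, HOXB6, HOXB8, HOXB9, HOXC5, HOXC6, HOXC8, HOXC9, HOXD4, HOXD8 and HOXD9. They held 12 of the 15 genes of paralog groups 4 to 8, the central genes. On the GENCODE 29 annotation (GRCh38), 16 of the 17 lay wholly inside the spans of other annotated genes, and HOXA10 lay inside them over 97.4% of its span, whereas none of the 22 HOX genes with a count lay wholly inside.

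The same held across the genome. Of 1768 protein-coding genes wholly inside other genes, 97.9% were at 0 in every library, against 10.8% of 7185 genes with no base inside another gene and 5.75% of 10903 genes partly inside. Among 658 nested genes whose exons lay apart from all exons of the other genes, 98.8% were at 0. Genes that every cell uses stood at 0 in the same way, among them RPL15, RPL32 and RPS4X of the ribosome, EIF4A1, TUBA1B and PSMA3. Of 862 genes wholly inside genes of the opposite strand only, 98.6% were at 0. For 16 of the 17 HOX genes the files thus gave no measured level, HOXA10 was at 0 over the 248 exon bases it has outside other genes, and the axial identity of the line was not read from them. The strand and overlap settings of the counting were not given in the sources used here.

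**Figure D1:**
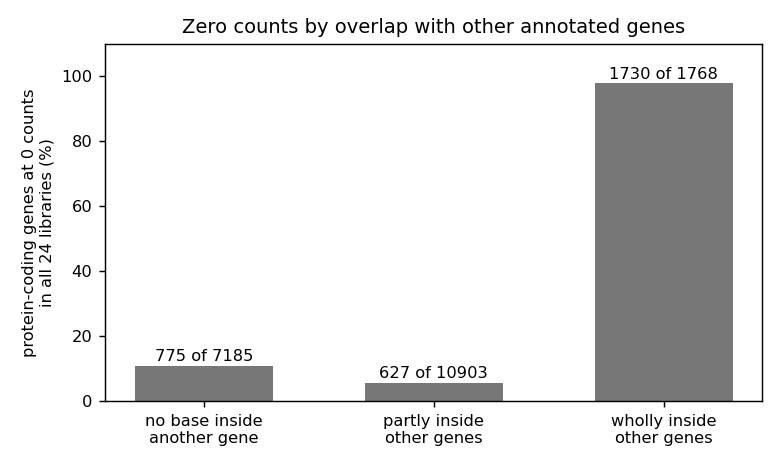
Share of protein-coding genes (%, vertical axis) with no count in any of the 24 libraries, for genes with no base, some bases or all bases inside other annotated genes, with the numbers of genes above the bars. Of the nested genes 97.9% were at 0, against 10.8% and 5.75% in the other classes.

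Levels of the 22 HOX genes with a count were compared per length, as CPM per kb of the exon bases outside other genes. HOXB7 was highest, with a mean of 33.9 over the 24 libraries (range 26.7 to 47.0), followed by HOXB2, a gene of hindbrain patterning, at 20.03 (14.6 to 33.7), with ranges that overlapped. HOXC13, known from hair follicles, and HOXC4 followed at 10.7 (6.89 to 17.3) and 10.2 (6.95 to 13.4), and their ranges overlapped. A lower tier of HOXA7 at 3.79, HOXA3 at 3.58, HOXB13 at 3.55 and HOXA2 at 2.92 also overlapped in range. This order is over all libraries and not within each group, since HOXA2 had 4.97 in WT Ctr and 0.916 in WNK2- Sor. HOXC10, HOXA11, HOXC11 and HOXD10 averaged 1.43, 1.21, 1.16 and 1.11, and HOXA13, HOXD11 and HOXC12 lay between 0.342 and 0.195. The length was chosen after the zeros were seen. Over the whole exon length the first place stayed with HOXB7 at 32.6, but HOXC4 (8.42) stood above HOXC13 (6.81), HOXB13 (3.55) and HOXA2 (2.92) stood above HOXA7 (1.42) and HOXA3 (1.32), and HOXC10 fell to 0.199.

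The 6 genes left out of the tests had between 2 and 60 counts in all 24 libraries together. HOXD3 had 60 and HOXA9 59, with 75.8% and 63.7% of their exon bases inside other genes. HOXB1, the hindbrain gene, had 8 counts over its full exon length, HOXD1 had 2 over 30.7% of its exon bases, and HOXD12 and HOXD13, which act in the digits, had 19 and 5, again over their full exon length. HOXA13, the other digit gene, had 604 counts, between 8 and 48 in each library. Per length and over all 24 libraries, every counted HOXA and HOXC gene numbered 9 to 13 stood above HOXD12 (0.0311) and HOXD13 (0.00477), but in WNK2- Ctr and WNK2- Sor the mean of HOXC12 (0.0248 and 0.00898) lay below that of HOXD12 (0.0619 and 0.0349).

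**Figure D2:**
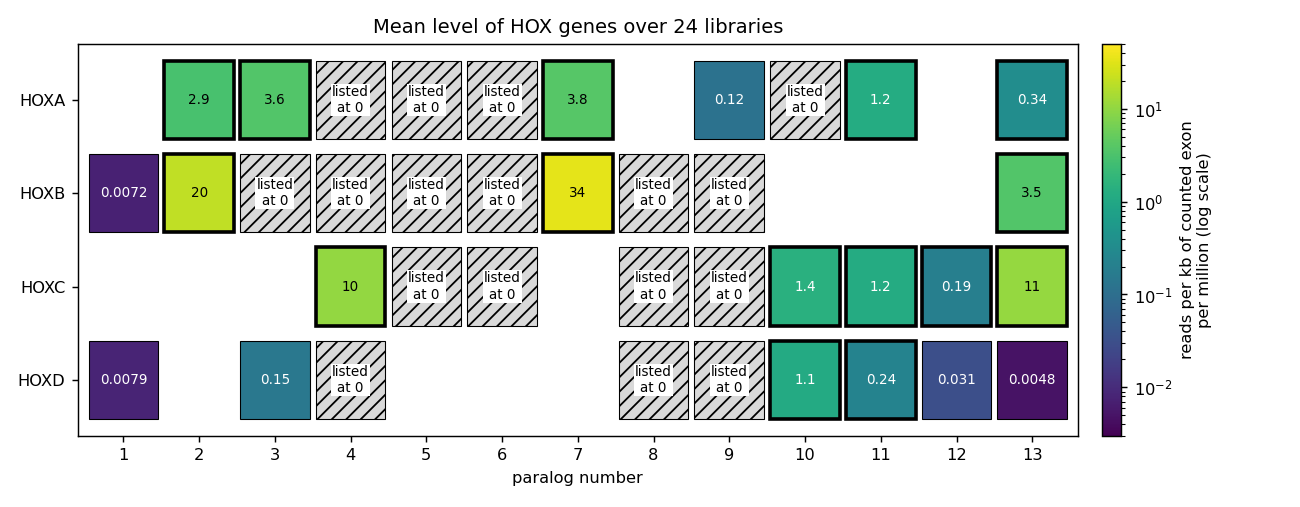
Mean level over 24 libraries (CPM per kb of exon outside other genes, colour on a log scale and number in each box) for the HOX genes reported here by cluster and paralog number. Hatched boxes were listed at 0 and thick frames mark tested genes. HOXB7 was highest at 33.9, and 12 of the 15 genes numbered 4 to 8 were listed at 0.

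Wild-type cells with and without sorbitol were compared first, to see what chronic hyperosmotic medium changed alone. Of the 16 tested HOX genes 2 were lower and 0 higher in the libraries labelled WT Sor than in those labelled WT Ctr (edgeR quasi-likelihood test, Benjamini-Hochberg adjusted p under 0.05 over 16600 genes), where 24.1% of all genes passed, 12.7% lower and 11.4% higher. Both were anterior HOXA genes. The median log2 fold change was -0.23 over the 16 HOX genes and 0.04 over all genes. Of the calls over all genes 47.2% were higher, and 64.3% with total counts in place of scaling factors.

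HOXA3 (GRCh38 chromosome 7, 27106184 to 27152581, minus strand), which patterns the third pharyngeal arch and the thymus, had 187, 299.6, 159 and 131 normalised counts in the WT Ctr libraries and 84.9, 82.4, 71.0 and 91.9 in the WT Sor libraries. Every WT Sor library lay below every WT Ctr library, and 1 WT Ctr library stood far above the others. The log2 fold change was -1.23 ± 0.22 (SE, edgeR adjusted p = 0.000242). HOXA3 was counted over 37.0% of its exon bases, since the rest lies inside other genes. HOXA2 (chromosome 7, 27100354 to 27102811, minus strand), the selector gene of the second pharyngeal arch, had 184.5, 257, 255 and 200.5 normalised counts in WT Ctr. The WT Sor libraries had 183, 127, 136 and 147, and the log2 fold change was -0.60 ± 0.16 (edgeR adjusted p = 0.00957). The highest WT Sor library lay just under the lowest WT Ctr library.

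Both calls ended when the libraries labelled WNK2 trans Ctr took the place of WT Ctr. HOXA3 then differed by -0.31 ± 0.22 and HOXA2 by -0.26 ± 0.16 (edgeR adjusted p = 0.395 and 0.324). In their place HOXD10 (-1.10 ± 0.33, edgeR adjusted p = 0.0232) and HOXD11 (-2.26 ± 0.74, adjusted p = 0.0394) were lower in WT Sor, with 15.1% of all genes called (6.31% lower, 8.74% higher). No HOX gene was called against both isotonic groups of cells without the deletion.

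In WNK2- cells, HOX genes were compared with WT at each osmolarity. In isotonic medium 8 of the 16 passed, 6 lower and 2 higher in the libraries labelled WNK2- Ctr, where 42.1% of all genes passed (21.5% lower, 20.7% higher). Of the 2 higher, HOXD10 and HOXD11, the latter entered the tests through the WNK2- Ctr libraries alone. Under sorbitol 9 passed in WNK2- Sor against WT Sor, 8 lower and 1 higher, where 46.3% of all genes passed (22.7% lower, 23.7% higher). The median log2 fold changes of the 16 were -0.33 and -0.31, against 0.00 and 0.02 over all genes. HOXD11 was higher at both osmolarities, but its isotonic call is a description only and its groups overlapped under sorbitol. HOXA2, HOXA3, HOXB2, HOXB13, HOXC4 and HOXC12 were lower at both. The comparisons shared no library, but both set WNK2- cells against WT cells within the same fit. With WNK2 trans Sor in place of WT Sor, 4 of these 6, HOXA2, HOXA3, HOXB2 and HOXC12, were again lower, while HOXB13 (0.10 ± 0.15, edgeR adjusted p = 0.651) and HOXC4 (-0.05 ± 0.10, adjusted p = 0.729) did not pass. In that comparison 4 were higher, HOXA7, HOXA11, HOXD10 (2.07 ± 0.40) and HOXD11, where 33.3% of all genes passed (17.0% lower, 16.3% higher).

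HOXA2 showed the clearest step. Its normalised counts were 86.2, 88.5, 76.7 and 79.1 in WNK2- Ctr and 43.0, 43.4, 43.5 and 35.5 in WNK2- Sor, all below every library of the other 4 groups, whose lowest value was 93.4 in WNK2 trans Sor. The log2 fold change was -1.44 ± 0.17 against WT Ctr and -1.84 ± 0.18 between the sorbitol groups (edgeR adjusted p = 1.91e-07 and 5.62e-09). Against the libraries labelled WNK2 trans Ctr it was -1.10 ± 0.17 (edgeR adjusted p = 7.26e-06), and for WNK2- Sor against WNK2 trans Sor it was -1.50 ± 0.18 (edgeR adjusted p = 4.35e-07). HOXA2 had no base inside another gene, so all of its exons were counted.

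HOXB13, a posterior gene best known from the prostate and the distal gut, had 211, 191.5, 191 and 199 normalised counts in WNK2- Ctr and 137, 146, 122 and 164 in WNK2- Sor. The WT Ctr libraries ran from 221.5 to 373 and the WT Sor libraries from 262 to 302, without overlap. The log2 fold changes were -0.52 ± 0.15 and -0.94 ± 0.15 (edgeR adjusted p = 0.00686 and 1.32e-05), and -0.71 ± 0.15 against WNK2 trans Ctr (edgeR adjusted p = 0.000293). HOXA3 was lower by -1.26 ± 0.22 in isotonic medium and -0.72 ± 0.23 under sorbitol (edgeR adjusted p = 5.03e-05 and 0.013). With WNK2 trans Ctr as the control the isotonic difference of HOXA3 was -0.33 ± 0.22 (edgeR adjusted p = 0.226), and the call ended.

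HOXC12 was near the limit of counting in WNK2- cells and is named here after its values were seen. Its raw counts over 4 libraries were 57 in WT Ctr, 64 in WT Sor, 110 in WNK2 trans Ctr and 21 in WNK2 trans Sor, but 7 in WNK2- Ctr and 3 in WNK2- Sor. Each of the 8 WNK2- libraries had at most 2.59 normalised counts, and each of the other 16 had at least 3.17. The ratio of WT Ctr to WNK2- Ctr was 10.96 (95% exact interval 4.99 to 28.5) and that of WT Sor to WNK2- Sor 27.3 (8.95 to 136), intervals that cover counting error only. The edgeR adjusted p was 8.81e-05 in isotonic medium and 6.02e-06 under sorbitol.

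HOXD10 and HOXD11, neighbours that act in the forming limb, went the other way. HOXD10 had 33.8, 33.2, 51.9 and 33.2 normalised counts in WT Ctr and 73.0, 78.4, 84.5 and 67.5 in WNK2- Ctr, with no overlap (log2 fold change 0.99 ± 0.32, edgeR adjusted p = 0.0158). Under sorbitol the 2 groups overlapped, at 17.4 to 43.6 in WT Sor and 29.9 to 41.7 in WNK2- Sor. HOXD11 summed to 65 raw counts in WNK2- Ctr against 10 in WT Ctr, and to 33 in WNK2- Sor against 5 in WT Sor (edgeR adjusted p = 0.00486 and 0.0138, the latter 0.0521 without WT Sor replicate 1). It passed the filter on low counts through the WNK2- Ctr libraries alone, at 11.37 to 18.33 normalised counts, while no other library exceeded 8.996. Its isotonic call was therefore conditioned on the group called higher and is given as a description only. With the libraries labelled WNK2 trans Ctr as control, neither passed (HOXD10 0.14 ± 0.31 with edgeR adjusted p = 0.744, HOXD11 1.02 ± 0.53 with 0.118).

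Smaller differences were found in HOXB2 and HOXC4. HOXB2 had 439 to 549.5 normalised counts in the WNK2- Ctr libraries, while those of WNK2- Sor had 458 to 550, against 532 to 801 in WT Ctr, which overlapped, and 642 to 672 in WT Sor, which did not. Its isotonic call (-0.38 ± 0.15, edgeR adjusted p = 0.0462) passed in only 12 of 31 alternatives, with adjusted p up to 0.187 without WT Ctr replicate 1. The sorbitol call was -0.44 ± 0.15 (edgeR adjusted p = 0.0194, and 0.0523 without WNK2- Sor replicate 4). HOXC4 was lower by -0.27 ± 0.10 and -0.41 ± 0.10 (edgeR adjusted p = 0.0312 and 0.00139). Its isotonic call ended without any one of WT Ctr replicates 1, 3 and 4 or WNK2- Ctr replicates 2 and 3 (edgeR adjusted p = 0.05635 to 0.116) and against WNK2 trans Ctr (adjusted p = 0.145).

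Under sorbitol, 2 genes with high paralog numbers were also lower. HOXA13 had 14.3, 14.2, 11.6 and 15.9 normalised counts in WNK2- Sor and 27.2 to 34.7 in WT Sor, and the log2 fold change was -1.10 ± 0.33 (edgeR adjusted p = 0.00784). HOXC11, a gene of the lumbosacral region and hindlimb, had 25.2 to 43.0 against 58.8 to 79.1 (-0.93 ± 0.34, edgeR adjusted p = 0.0264, and 0.0625 and 0.0830 without WT Sor replicate 3 or WNK2- Sor replicate 4). In isotonic medium their values were -0.58 and -0.56, which did not pass, nor did those of WNK2- Sor against WNK2 trans Sor (-0.52 and 0.08, edgeR adjusted p = 0.250 and 0.884). With WNK2 trans Ctr as the isotonic control 4 HOX genes were called, HOXA2, HOXB13, HOXC12 and HOXC11 (-0.97 ± 0.33, edgeR adjusted p = 0.0188), all lower, where 47.7% of all genes passed.

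Within WNK2- cells, 5 of the 16 genes were lower and 0 higher in WNK2- Sor than in WNK2- Ctr, where 14.9% of all genes passed (6.64% lower, 8.25% higher), and 15 of the 16 had a negative log2 fold change, as did 49.4% of all genes. HOXA2 fell by 0.99 ± 0.18 on the log2 scale (edgeR adjusted p = 0.000358) from the values given above, without overlap. HOXD10 fell from 67.5 to 84.5 normalised counts to 29.9 to 41.7 (-1.04 ± 0.31, edgeR adjusted p = 0.0249), and HOXA3 from 69.1 to 95.7 to 38.3 to 59.2 (-0.70 ± 0.23, adjusted p = 0.0403). HOXB13 (-0.48 ± 0.15, edgeR adjusted p = 0.0303) and HOXC4 (-0.37 ± 0.10, adjusted p = 0.0123) also fell. Of the calls over all genes 55.4% were higher, and 71.7% with total counts, under which 2 HOX genes remained past the threshold.

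HOXA2 was the call that passed in every alternative of that comparison. Without WNK2- Sor replicate 3 it was the 1 HOX gene past the threshold, with edgeR adjusted p of 0.103 for HOXA3, 0.05935 for HOXD10, 0.105 for HOXB13 and 0.0578 for HOXC4 at log2 fold changes of -0.65, -1.03, -0.42 and -0.31. Without WNK2- Sor replicate 1, 2 genes passed. Without replicate 4 of WNK2- Sor or any one WNK2- Ctr library 3 passed, and without WNK2- Sor replicate 2, 4. With the 2 groups fitted alone 8 passed.

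The difference between the sorbitol responses of WNK2- and WT cells was tested as an interaction. No HOX gene passed edgeR's test, 0 of 16 had an unadjusted p under 0.05 and DESeq2 called 0, where 8.65% of all genes passed (4.66% lower, 3.99% higher). The fitted differences ran from -1.19 for HOXC12 to 0.85 for HOXC10. With WT Ctr and WNK2 trans Ctr exchanged edgeR again called 0 HOX genes, with an edgeR adjusted p of 0.113 for HOXA2 (-0.74 ± 0.25, the 1 gene of the 16 with an unadjusted p under 0.05), and 3.39% of all genes passed. DESeq2 was not run on the exchanged contrast.

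**Figure D3:**
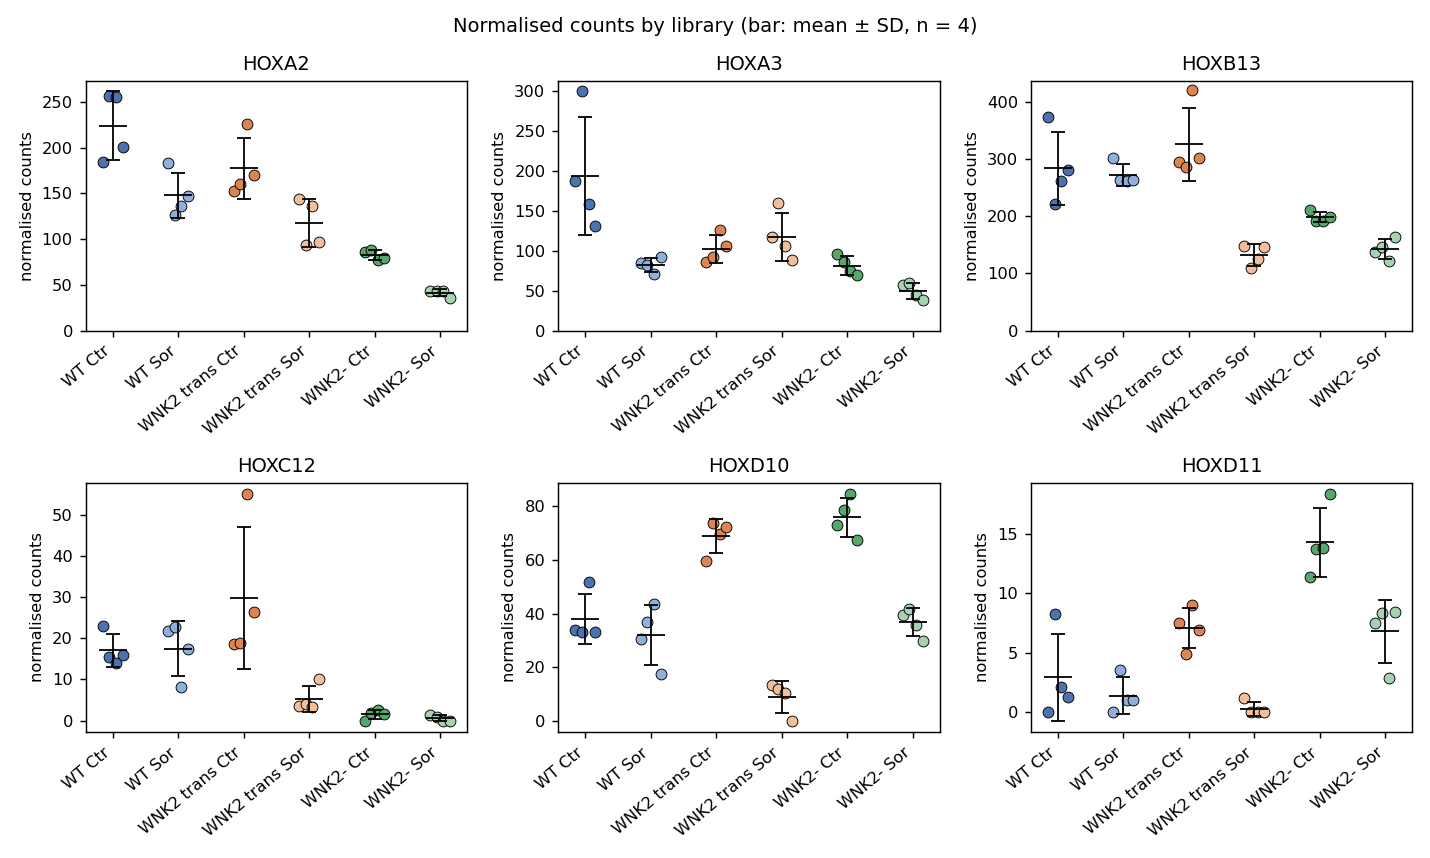
Normalised counts (vertical axis) of 6 HOX genes in each of the 24 libraries by labelled group, with the mean and SD of each group (n = 4). HOXA2 stepped down to 35.5 to 43.5 in WNK2- Sor, HOXC12 was at most 2.59 in WNK2- libraries, and HOXD10 was lowest in WNK2 trans Sor, at 0 to 13.2.

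In isotonic medium the libraries labelled WNK2 trans Ctr and WT Ctr differed in 1 HOX gene. HOXA3 was lower, at 85.8, 92.6, 126 and 106 normalised counts against the WT Ctr values above (-0.92 ± 0.22, edgeR adjusted p = 0.00483). It was called where 12.5% of all genes passed (6.98% lower, 5.57% higher), and with the 2 groups fitted alone its adjusted p was 0.0557. HOXA3 was thus called lower than WT Ctr in WT Sor, WNK2- Ctr and WNK2 trans Ctr, in comparisons that share the WT Ctr libraries. HOXD10 was not called, although its 4 WNK2 trans Ctr libraries (59.7, 73.7, 69.7 and 72.4) lay above all of WT Ctr (0.85, edgeR adjusted p = 0.0889).

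Under sorbitol, 6 of 16 HOX genes were lower and 0 higher in the libraries labelled WNK2 trans Sor than in WT Sor, where 31.7% of all genes passed (15.5% lower, 16.1% higher). Neither isotonic group enters this comparison, but WT Sor does, with its low WNK2 counts. The median log2 fold change was -0.74 over the 16 and 0.01 over all genes.

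HOXD10 had the largest change among the called genes. Its normalised counts were 13.2, 12.0, 10.6 and 0 in WNK2 trans Sor and 30.5, 37.0, 43.6 and 17.4 in WT Sor. The groups did not overlap, and the log2 fold change was -1.87 ± 0.41 (edgeR adjusted p = 0.00102). HOXA7, a trunk gene, had 39.7, 35.1, 20.1 and 10.1 against 42.6 to 96.8 (-1.46 ± 0.34, edgeR adjusted p = 0.00202), and HOXB13 had 148, 109, 125 and 147 against 262 to 302 (-1.04 ± 0.15, adjusted p = 9.91e-06). HOXA7 was counted over 37.5% of its exon bases.

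HOXC11 had 60.2, 13.1, 41.2 and 23.9 normalised counts in WNK2 trans Sor, which overlapped the 58.8 to 79.1 of WT Sor (-1.01 ± 0.35, edgeR adjusted p = 0.0278). Its call ended without any one of WT Sor replicates 3 and 4 or WNK2 trans Sor replicates 2 and 4 (edgeR adjusted p = 0.0507 to 0.106). HOXC4 was lower by a smaller step, at 317 to 392 against 411 to 459.5 (-0.36 ± 0.10, edgeR adjusted p = 0.00789). HOXC12, below the level set for full values, was also lower (edgeR adjusted p = 0.0151), with 21 raw counts against 64. HOXA11 and HOXC13 stood just outside the threshold (-0.86 and -0.40, edgeR adjusted p = 0.0522 and 0.0531).

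Within the transfection labels, 11 of 16 HOX genes were lower and 0 higher in WNK2 trans Sor than in WNK2 trans Ctr. Of all genes 48.0% passed, 23.7% lower and 24.3% higher, so 11 of 16 stood beside 23.7% for the lower calls. The median log2 fold change was -0.89 over the 16 and 0.01 over all genes. Of the calls over all genes 50.6% were higher, and 63.8% with total counts, under which 10 HOX genes passed, all lower.

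HOXD10 fell from 59.7, 73.7, 69.7 and 72.4 normalised counts to 13.2, 12.0, 10.6 and 0 (-2.97 ± 0.39, edgeR adjusted p = 7.46e-07). HOXA11, which with HOXD11 shapes the middle segment of the limb, fell from 23.6, 72.9, 41.6 and 56.3 to 18.05, 24.1, 20.1 and 12.85, with 1 overlapping library (-1.39 ± 0.33, edgeR adjusted p = 0.00109). HOXB13 fell from 295, 285, 420.5 and 302 to the values given above (-1.30 ± 0.15, edgeR adjusted p = 1.52e-07). HOXA7 fell by 1.29 ± 0.35 on the log2 scale, HOXC11 by 1.19 ± 0.34 and HOXC13 by 0.68 ± 0.16 (edgeR adjusted p = 0.00345, 0.00627 and 0.000965). The groups overlapped for HOXC11 and not for HOXA7 and HOXC13.

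The other 5 calls were HOXA2 (-0.60), HOXC4 (-0.49), HOXB7 (-0.38), HOXC12 and HOXD11. HOXB7, highest per length among the 22 HOX genes with a count, had 855.6 to 1246 normalised counts in the WNK2 trans Ctr libraries, while WNK2 trans Sor had 720 to 954, which overlapped (edgeR adjusted p = 0.0158, and 0.101 without WNK2 trans Ctr replicate 3). HOXD11 had 26 raw counts in WNK2 trans Ctr and 1 in WNK2 trans Sor, a ratio of 26.5 with a 95% exact interval of 4.36 to 1088 for counting error only. Among the genes that did not pass were HOXA3, HOXA13, HOXB2 and HOXC10, and HOXA3 and HOXB2 had positive values of 0.20 and 0.19.

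Against the libraries labelled WT Ctr, WNK2 trans Sor was lower in 13 HOX genes and higher in 0, where 39.2% of all genes passed. HOXD10 (-2.12 ± 0.40, edgeR adjusted p = 0.000187), HOXB13 (-1.10 ± 0.15, adjusted p = 3.91e-06), HOXA7 (-1.48 ± 0.34), HOXA11 (-1.07 ± 0.33) and HOXC13 (-0.42 ± 0.16) were again lower, while HOXC11 did not pass (-0.77 ± 0.35, adjusted p = 0.0825). HOXA3 and HOXA13 were called against WT Ctr only. The difference between these values is that between the isotonic groups, which passed for HOXA3 (-0.92, edgeR adjusted p = 0.00483) and not for HOXA13 (-0.15, adjusted p = 0.804). HOXA7, HOXB13, HOXC4, HOXC12 and HOXD10 were called lower in WNK2 trans Sor than in each of WT Ctr, WT Sor and WNK2 trans Ctr, 3 comparisons that share the WNK2 trans Sor libraries. In bulk libraries fewer cells with a transcript and less of it per cell cannot be told apart.

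**Figure D4:**
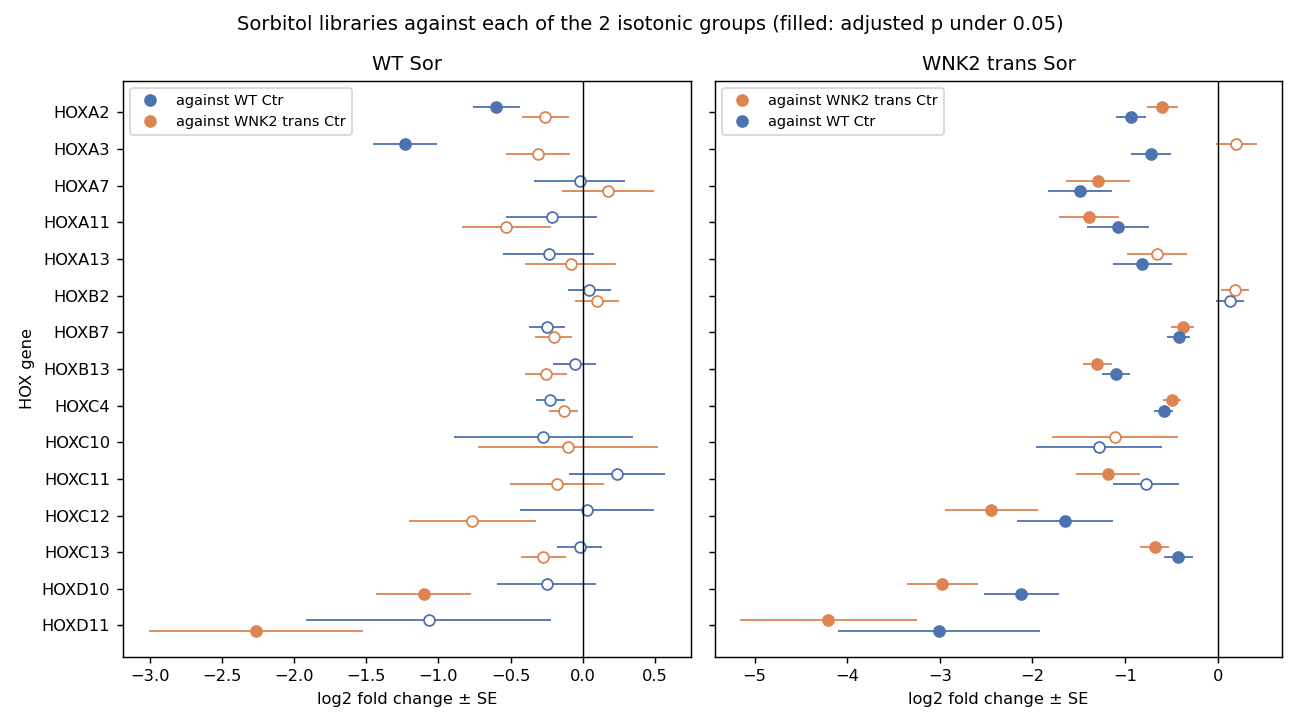
Log2 fold change ± SE (edgeR, horizontal axis) of the tested HOX genes reported here in the libraries labelled WT Sor (left) and WNK2 trans Sor (right), each against WT Ctr and against WNK2 trans Ctr, with filled points for adjusted p under 0.05. In WNK2 trans Sor 11 genes were lower against WNK2 trans Ctr, and in WT Sor 2 genes were lower against each control, which were not the same genes.

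The difference between the sorbitol responses under the WNK2 trans and WT labels was tested as an interaction, and 8 of 16 HOX genes passed, 7 with a negative and 1 with a positive value, where 35.5% of all genes passed (17.4% lower, 18.1% higher). The negative ones with the largest values among genes of sufficient level were HOXD10 (-2.72 ± 0.52, edgeR adjusted p = 0.000229), HOXC11 (-1.42 ± 0.48, 0.0229), HOXA7 (-1.27 ± 0.47, 0.0369), HOXB13 (-1.24 ± 0.21, 5.81e-05) and HOXA11 (-1.17 ± 0.45, 0.0462). HOXA3 had a value of 1.43 ± 0.31 (edgeR adjusted p = 0.000823), from -1.23 under WT and 0.20 under WNK2 trans. HOXC12 (-2.47) and HOXC13 (-0.66) were the other negative ones.

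These interactions depended on which isotonic group was set against which sorbitol group. With WT Ctr and WNK2 trans Ctr exchanged, 2 HOX genes passed, HOXA7 (-1.66, edgeR adjusted p = 0.0360) and HOXB13 (-0.85, adjusted p = 0.0177), and 5.46% of all genes. HOXD10 was then -1.02 (edgeR adjusted p = 0.302), and HOXA3 changed sign to -0.41 (adjusted p = 0.522). HOXA11 passed in 13 of 31 alternatives and HOXA7 in 21, while HOXB13 passed in all 31.

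**Figure D5:**
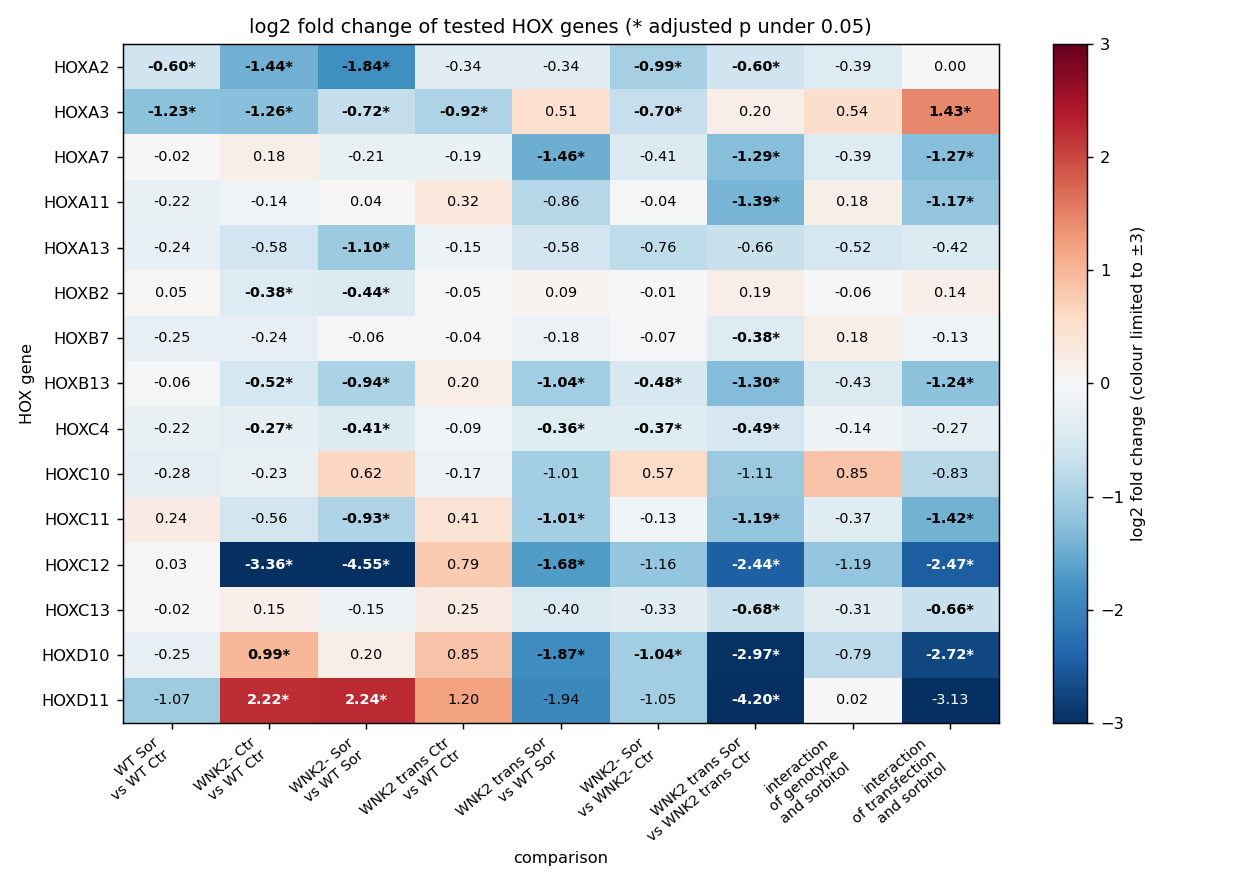
Log2 fold change of the tested HOX genes reported here (rows) in the 7 comparisons of groups and 2 interactions (columns), with colour limited to ±3 and an asterisk for edgeR adjusted p under 0.05. The column of WNK2 trans Sor against WNK2 trans Ctr has 11 marked genes, all lower, and the genotype interaction has none.

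Summed over the clusters, the HOXD genes had the widest range relative to their level. HOXD transcripts with a count summed to 2.37 ± 0.39 CPM in WT Ctr, 2.03 ± 0.79 in WT Sor, 4.19 ± 0.37 in WNK2 trans Ctr, 0.700 ± 0.33 in WNK2 trans Sor, 5.15 ± 0.36 in WNK2- Ctr and 2.66 ± 0.32 in WNK2- Sor (SD, n = 4). The HOXA sum was highest in WT Ctr at 32.5 ± 5.89 CPM and lowest in WNK2- Sor at 12.1 ± 1.62. The HOXB sum lay between 80.6 ± 5.58 and 108 ± 16.3 CPM in all 6 groups. The genes numbered 9 to 13 summed to 52.7 ± 9.40 CPM in WNK2 trans Ctr and 24.7 ± 3.74 in WNK2 trans Sor, whereas those numbered 1 to 3 summed to 49.8 ± 7.10 and 52.0 ± 12.4. HOXB2 makes up most of the latter sum, so these are descriptions of a few genes and not of the whole clusters.

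The 250 bases before the RefSeq start sites (GRCh38.p14) of HOXA2, HOXD10 and HOXD11 are shown. HOXD10 and HOXD11 are neighbours that were both lower within the transfection labels. Of the pair HOXD11 alone passed in WNK2- Sor against WT Sor, and neither passed in WNK2- Ctr against WNK2 trans Ctr. HOXA2 was lower in WNK2- cells under each control. RefSeq entries were matched for 20 of the 39 HOX genes and 8 of the 16 tested. Capitals mark matches on either strand to TGATNNAT, a core bound by PBX and HOX proteins together, TAATTA, a homeodomain core, TATAAA, the TATA box, or CCAAT, the CCAAT box, where N is any base. HOXA2 lies at chr7:27102684-27102933 on the minus strand, HOXD10 at chr2:176116528-176116777 and HOXD11 at chr2:176107030-176107279 on the plus strand. Part of the HOXA2 window, and all of the others, lies inside the longer gene models of GENCODE 29.
HOXA2: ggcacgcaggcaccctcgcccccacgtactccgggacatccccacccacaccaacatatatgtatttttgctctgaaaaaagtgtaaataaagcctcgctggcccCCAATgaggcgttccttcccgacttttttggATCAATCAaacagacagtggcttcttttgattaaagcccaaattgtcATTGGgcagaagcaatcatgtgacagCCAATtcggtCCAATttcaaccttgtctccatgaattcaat
HOXD10: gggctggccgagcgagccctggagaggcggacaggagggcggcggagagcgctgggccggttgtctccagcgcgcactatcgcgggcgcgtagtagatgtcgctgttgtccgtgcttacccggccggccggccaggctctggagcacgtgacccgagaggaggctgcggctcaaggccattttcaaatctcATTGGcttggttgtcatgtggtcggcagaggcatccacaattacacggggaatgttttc
HOXD11: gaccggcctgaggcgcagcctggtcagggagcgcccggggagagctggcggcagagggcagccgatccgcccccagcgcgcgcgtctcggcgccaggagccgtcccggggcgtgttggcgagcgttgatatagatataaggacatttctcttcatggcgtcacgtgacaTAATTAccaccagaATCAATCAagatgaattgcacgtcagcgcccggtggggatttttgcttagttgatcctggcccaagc

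HOXA2 held 4 matches to CCAAT and 1 to TGATNNAT, HOXD10 held 1 to CCAAT, and HOXD11 held 1 each to TAATTA and TGATNNAT. Of 35116 RefSeq windows of this length, 32.0% held CCAAT, 6.47% TGATNNAT, 4.35% TAATTA and 10.7% TATAAA. Of the 14 windows of tested HOX genes, 7 of which belong to HOXA3, 6 held CCAAT, 2 TGATNNAT, 1 TAATTA and 1 TATAAA. A match of letters is a description and no evidence of binding.

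The TALE cofactors, PBX, MEIS and PKNOX proteins that bind DNA together with HOX proteins, were all 9 tested. In WNK2- Sor against WT Sor 6 were lower and 2 higher, where 22.7% and 23.7% of all genes were. In WNK2- Ctr against WT Ctr 5 were lower and 2 higher, beside 21.5% and 20.7% of all genes, and against WNK2 trans Ctr 5 and 1, where 47.7% of all genes passed. MEIS3 averaged 1621 ± 371 normalised counts in WT Ctr, 2434 ± 117.5 in WT Sor, 898.9 ± 103 in WNK2- Ctr and 623.5 ± 93.1 in WNK2- Sor (SD, n = 4). Its log2 fold change in WNK2- Sor against WT Sor was -1.96 ± 0.18 (edgeR adjusted p = 1.70e-09). The WNK2 trans Sor mean, 915 ± 327, lay much nearer to WNK2- Sor. The sorbitol response of MEIS3 differed between WNK2- and WT by -1.11 ± 0.25 (edgeR adjusted p = 0.00529), which became -0.45 ± 0.25 with the isotonic groups exchanged (adjusted p = 0.445). In WNK2- Sor against WT Sor the values of MEIS1 and PKNOX2 were -1.36 ± 0.11 and -2.27 ± 0.20. The median over the 9 in that comparison was -0.69, against 0.02 over all genes.

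Within the transfection labels 6 of the 9 cofactors were lower under sorbitol and 0 higher, where 23.7% of all genes were lower and 24.3% higher, and WT Ctr as control gave 5 lower and 0 higher (19.5% and 19.8% of all genes). The median log2 fold change was -0.75 against 0.01 over all genes. MEIS3 averaged 2568 ± 276 normalised counts in WNK2 trans Ctr and 915 ± 327 in WNK2 trans Sor, and PKNOX2 averaged 322 ± 43.7 and 173 ± 17.8, neither with overlap. In WT Sor against WT Ctr 3 were lower, led by PKNOX1 (-0.57 ± 0.09) and PKNOX2 (-0.92 ± 0.18), and 2 higher, MEIS1 and MEIS3, where 12.7% of all genes were lower and 11.4% higher. With WNK2 trans Ctr as control 4 were lower and 0 higher (6.31% and 8.74%), and MEIS1 turned to -0.32 ± 0.10 (edgeR adjusted p = 0.0378). In WNK2- Sor against WNK2- Ctr 6 were lower and 0 higher (6.64% and 8.25% of all genes). In WNK2 trans Ctr against WT Ctr 3 were higher and 0 lower (5.57% and 6.98%), and under sorbitol 5 were lower and 2 higher in WNK2 trans Sor than in WT Sor (15.5% and 16.1%).

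Polycomb genes, whose complexes hold HOX genes silent, were counted next. Of 11 tested PRC2 genes 5 were lower and 0 higher in WT Sor than in WT Ctr, beside 12.7% and 11.4% of all genes, among them the methyltransferase gene EZH2 (-0.46 ± 0.09, edgeR adjusted p = 0.00038), whereas against WNK2 trans Ctr 0 were called and EZH2 had -0.18 (edgeR adjusted p = 0.165). In WNK2- Ctr 7 were lower and 1 higher than in WT Ctr (21.5% and 20.7% of all genes), and 5 and 3 against WNK2 trans Ctr (47.7% of all genes passed). EZH1, the other methyltransferase gene, differed by -0.73 ± 0.08 from WT Ctr and -0.93 ± 0.08 from WNK2 trans Ctr (edgeR adjusted p = 2.82e-08 and 2.44e-10). In WNK2 trans Sor against WNK2 trans Ctr 48.0% of all genes passed, and the share of PRC2 genes, 5 of 11, was near it. Of these 2 were higher, JARID2 (0.80 ± 0.12) and PHF19, and 3 lower, PHF1 (-0.78), EZH1 (-0.46 ± 0.08) and RBBP4. With WT Ctr as control 1 PRC2 gene was higher and 4 lower, where 19.8% and 19.5% of all genes were. Of 16 tested PRC1 genes 9 were lower and 0 higher in WNK2 trans Sor against WNK2 trans Ctr (23.7% and 24.3% of all genes), and 6 and 0 against WT Ctr (19.5% and 19.8%). Against WT Sor 8 were lower and 0 higher in each of WNK2 trans Sor and WNK2- Sor, where 15.5% and 22.7% of all genes were lower. In WNK2- Ctr against WT Ctr 2 were lower and 2 higher, where 42.1% of all genes passed. With WNK2 trans Ctr as the control of WNK2- Ctr 6 were lower and 1 higher, where 47.7% did. In WNK2- Sor against WNK2- Ctr 1 was lower and 0 higher, where 14.9% did. CBX2 (-1.49 ± 0.14), CBX8 (-1.39 ± 0.25) and CBX7 (-1.21 ± 0.18), which read the Polycomb mark, had the lowest values within the transfection labels, and CBX7 in WNK2- Sor against WT Sor with -1.93 ± 0.18 (edgeR adjusted p = 3.57e-09). CBX7 averaged 89.63 ± 11.75 normalised counts in WNK2- Sor, 341.8 ± 18.57 in WT Sor and 178.5 ± 63.86 in WNK2 trans Sor (SD, n = 4).

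Of 11 MLL/trithorax genes, whose products keep HOX genes active, 4 were lower and 0 higher in WNK2 trans Sor against WNK2 trans Ctr, where 48.0% of all genes passed. With WT Ctr as control again 4 were lower and 0 higher, where 39.2% of all genes passed. In WNK2- Ctr 3 were lower and 3 higher than in WT Ctr, where 42.1% of all genes passed, and 2 and 2 against WNK2 trans Ctr, where 47.7% did. PSIP1, which tethers MLL complexes to chromatin, was lower by -0.82 ± 0.10 in WNK2 trans Sor against WNK2 trans Ctr and -0.91 ± 0.10 in WNK2- Ctr against WT Ctr, and by -1.41 ± 0.10 in WNK2- Sor against WT Sor (edgeR adjusted p = 1.67e-11). KMT2A, the MLL1 gene itself, was not called in any of the 9 tests.

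Retinoic acid induces HOX genes in order along a cluster, and 9 of 15 genes of its pathway and other upstream factors were tested. In WNK2 trans Sor against WNK2 trans Ctr 3 were higher, the receptor gene RARB (2.13 ± 0.17, edgeR adjusted p = 1.29e-10) and the synthesis genes ALDH1A2 (2.53 ± 0.30) and ALDH1A3 (1.25 ± 0.21), and 5 were lower, among them RXRA and RARG (both -1.35), so that 8 of 9 passed where 48.0% of all genes did. Against WT Ctr 3 were higher and 3 lower (39.2% of all genes passed). In WNK2- Sor against WT Sor 3 were higher and 5 lower, where 46.3% of all genes passed, among them CYP26B1, which breaks retinoic acid down (-1.70 ± 0.13), and GDF11 (-1.38 ± 0.15). CYP26B1 averaged 238.2 normalised counts in WNK2- Sor, 773.4 in WT Sor and 472.9 in WNK2 trans Sor, and GDF11 averaged 349.4, 909.1 and 528.5. In WT Sor against WT Ctr 3 were higher, ALDH1A3, CYP26B1 and GDF11, and 0 lower (24.1% of all genes passed). Against WNK2 trans Ctr 2 were higher, CYP26B1 and RARB, and 1 lower, RXRA (15.1%).

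Position factors outside the clusters were counted from a list of 30, of which 18 were tested. In WNK2 trans Sor against WNK2 trans Ctr 15 were lower and 1 higher, where 23.7% of all genes were lower and 24.3% higher, with a median log2 fold change of -1.42 against 0.01 over all genes. Against WT Ctr 14 were lower and 1 higher (19.5% and 19.8% of all genes), and against WT Sor 12 and 1 (15.5% and 16.1%). In WNK2- Ctr against WT Ctr 5 were lower and 6 higher (21.5% and 20.7%). With WNK2 trans Ctr as the control of WNK2- Ctr 8 were lower and 5 higher, where 47.7% of all genes passed. The median log2 fold change was then -0.59, against 0.02 with WT Ctr. In WNK2- Sor against WT Sor 9 were lower and 4 higher (22.7% and 23.7%). The lower ones within the transfection labels included ALX4 (-2.15 ± 0.14), PRRX2 (-2.71 ± 0.22) and LHX2 (-1.89 ± 0.17), all limb or craniofacial homeobox genes, and the 1 higher was PRRX1 (3.86 ± 0.12, edgeR adjusted p = 5.92e-18). PRRX1 was also higher in WT Sor (2.45 ± 0.11) and WNK2- Sor (2.78 ± 0.12) than in their isotonic groups, and in WT Sor than in WNK2 trans Ctr (2.73 ± 0.11). PITX1, which marks hindlimb identity, averaged 760 ± 211 normalised counts in WT Ctr, 1319 ± 138 in WNK2- Ctr and 442.5 ± 146 in WNK2 trans Sor.

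The WNK2- Sor counts of these lists also depended on the control. Against WNK2 trans Sor, where 17.0% of all genes were lower and 16.3% higher, 5 of the TALE cofactors were lower and 1 higher, 6 and 0 of the PRC2 genes, 2 and 1 of the PRC1 genes, and 1 and 1 of the MLL/trithorax genes. Of the retinoic acid list 4 were lower and 2 higher. Of the position factors 4 were lower and 9 higher, the opposite balance to that against WT Sor.

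Noncoding genes of the HOX clusters numbered 18, of which 7 were tested and 6 were listed at 0. HOTAIR, a long noncoding RNA of the HOXC cluster, had 101, 97.1, 91.95 and 101 normalised counts in WT Ctr and 168, 145, 166 and 166 in WT Sor. The WNK2 trans Ctr libraries had 122 to 189.6, while WNK2 trans Sor had 45.4 to 61.4. Sorbitol groups and isotonic groups did not overlap under either label, with log2 fold changes of 0.72 ± 0.15 under WT and -1.53 ± 0.16 under WNK2 trans (edgeR adjusted p = 0.0014 and 3.02e-08). With the isotonic groups exchanged the WT Sor libraries lay within the range of WNK2 trans Ctr and the call ended (0.16 ± 0.15, edgeR adjusted p = 0.539), while WNK2 trans Sor stayed below WT Ctr (-0.96 ± 0.17, adjusted p = 6.13e-05). HOTAIRM1 of the HOXA cluster was lower under sorbitol in WNK2- cells (-0.74 ± 0.15) and within the transfection labels (-0.83 ± 0.15, and -1.02 ± 0.15 against WT Ctr). HAGLR of the HOXD cluster had 32 raw counts in WNK2- Ctr and 62 in WNK2- Sor, against 2 in WT Ctr and 4 in WT Sor. The strand setting was not given in the sources used here, and values of noncoding genes antisense to a HOX gene are uncertain for that reason.

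Genes next to the clusters were compared over 2 Mb on either side. In WNK2 trans Sor against WNK2 trans Ctr the median log2 fold change was -0.09 over 18 genes around HOXD and -3.59 over its 2 tested HOX genes, -0.44 over 52 genes around HOXC and -1.11 over 5 HOX genes, -0.13 over 77 genes around HOXB and -0.38 over 3, and -0.04 over 15 genes around HOXA and -0.66 over 6. In WNK2- Ctr against WT Ctr the neighbours had medians of -0.15 around HOXD, where the HOX genes had 1.60, -0.13 around HOXC, where they had -0.27, -0.05 around HOXB, where they had -0.38, and 0.01 around HOXA, where they had -0.54. The HOXB genes stood above their neighbours in WNK2 trans Sor against WT Sor, at -0.18 and -0.27, and in the transfection interaction, at -0.13 and -0.29. With WNK2 trans Ctr as control the HOXC order turned, at -0.26 for the neighbours and -0.18 for the HOX genes, and the HOXD genes had 0.58 beside -0.20.

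Markers of other cell types moved with the HOX genes in places. The 6 markers of fibroblasts or dedifferentiated chondrocytes, among them COL1A1, COL3A1, PDGFRB and POSTN, were lowest in 2 of the sorbitol groups. THY1 of this list lies wholly inside other genes and was listed at 0, so it was not measured. WNK2 trans Sor libraries summed to between 1240 and 2007 CPM, against 6069 to 7278 for WNK2 trans Ctr. WNK2- Sor libraries reached 1034 to 1219 and WNK2- Ctr libraries 2768 to 3098, whereas WT Sor (4103 to 4331) and WT Ctr (3040 to 4207) overlapped. The 12 chondrocyte markers summed to 18.99 to 24.57 CPM in WNK2- libraries and 63.8 to 156.5 in the others. HAPLN1 made up most of that sum, with 117.5 of 124 CPM in WNK2 trans Sor and 46.4 of 74.0 in WNK2 trans Ctr, while COL2A1, ACAN, COMP and MATN3 had lower means in WNK2 trans Sor than in WNK2 trans Ctr. The 3 endothelial markers summed to 98.7 to 106 CPM in WNK2 trans Sor and to at most 66.2 elsewhere. Of these, CDH5 averaged 50.2 CPM in WNK2 trans Sor and at most 13.4 in any other group. PECAM1 averaged 50.4 in WNK2 trans Sor and 52.7 in WT Sor, and KDR was highest in WNK2- Sor at 2.65. The 4 epithelial markers summed to 608 to 1240 CPM in all groups, nearly all of it KRT8 and KRT18. Group means were at most 1.52 CPM for EPCAM and 0.481 for CDH1. The part of these differences in the HOX results was not tested.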

How the data were processed

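Poly(A) RNA-seq libraries of 24 T/C-28a2 samples were analysed from the raw counts per gene that the authors deposited, 1 table per sample. The submitters' processing notes name GRCh38, FastQC 0.11.9, HISAT2 2.2.1, HTSeq 2.0.2 and DESeq2 1.38.3. The annotation release, strand setting and overlap mode were not given in the sources used here, so overlaps were taken from GENCODE 29, which may differ from the annotation used for counting. Groups came from the sample labels.

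Counts were fitted in R 4.3.3 with edgeR 4.0.16 (filterByExpr, TMM factors, 6 group means, quasi-likelihood test), with Benjamini-Hochberg adjustment over 16600 genes and a threshold of 0.05. Each SE was derived from the estimate and its F statistic. A gene got full values if it was among the 6 called HOX genes with the largest change in a comparison and had a mean log2 CPM of at least 0. HOXC12 and HOXD11 fell below that level and were named after their values were seen, as were smaller calls. Intervals on ratios are exact at 95% and cover counting error only. The 39 members and the gene lists were chosen with earlier results of these data known. Single values of some genes are not reported here, though counts and sums over lists include them. Steps were tested on simulated data. Alternatives were DESeq2 1.42.0, RLE factors, no filter, the replicate block, the compared groups alone, each library left out, and the other isotonic group as control. Total counts without scaling, the exchanged interactions, WNK2- Sor against WNK2 trans Sor, and the other isotonic group for the gene lists were added after the data were seen.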

Additional observations from a re-analysis of the deposited data

Results flagged for a closer look

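In 8 of 96 sets of 1 gene and 1 group, a single library stood apart from the other 3 by Dixon's criterion, which chance meets in about 1 in 20 sets. The values, in normalised counts, were 35.5 for HOXA2 in WNK2- Sor replicate 4, 954 for HOXB7 in WNK2 trans Sor replicate 1, 302 for HOXB13 in WT Sor replicate 1 and 420.5 for HOXB13 in WNK2 trans Ctr replicate 3. The others were 10.1 for HOXC12 in WNK2 trans Sor replicate 4, 51.9 for HOXD10 in WT Ctr replicate 3, 1.20 for HOXD11 in WNK2 trans Sor replicate 1 and 2.90 for HOXD11 in WNK2- Sor replicate 3.

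The sorbitol response differed between the WNK2 trans and WT labels in 8 HOX genes by edgeR's interaction test. The log2 differences were 1.43 for HOXA3, -1.27 for HOXA7, -1.17 for HOXA11, -1.24 for HOXB13, -1.42 for HOXC11, -2.47 for HOXC12, -0.66 for HOXC13 and -2.72 for HOXD10.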

How the results depend on the processing

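Of 50 gene-level calls, 22 passed under every alternative, 26 were lost under at least 1 and 3 reversed, with 1 in both classes, and 35 passed under every alternative that kept the control group. Among the alternatives that kept it, DESeq2 lost 0 calls, RLE factors 1, no filter on low counts 3, total counts 5 and the compared groups alone 6. Another control group ended or reversed 18 calls, and leaving out 1 library 14. No other control was tried for WNK2 trans Ctr against WT Ctr (1 call) or WNK2 trans Sor against WT Sor (6). None was tried for WNK2- Sor against WNK2- Ctr (5) either, so these calls faced fewer alternatives. With WNK2 trans Ctr in place of WT Ctr the 8 HOX genes called in WNK2- Ctr became 4, and with both exchanged the 8 interactions of transfection and sorbitol became 2, HOXA3 reversing to -0.41. With WNK2 trans Sor in place of WT Sor the 9 calls in WNK2- Sor became 8, and HOXB13 and HOXC11 reversed to 0.10 and 0.083. In WNK2 trans Ctr against WT Ctr the 1 call became 2 with DESeq2 and 0 with the groups alone. In WNK2- Sor against WNK2- Ctr the 5 calls became 2 with total counts and 8 with the groups alone. The cause was not tested.

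With 1 library left out at a time, HOX calls stayed at 2 in WT Sor and ranged from 6 to 8 in WNK2- Ctr, 7 to 9 in WNK2- Sor against WT Sor, 1 to 2 in WNK2 trans Ctr, 5 to 9 in WNK2 trans Sor against WT Sor, 1 to 5 in WNK2- Sor against WNK2- Ctr, 10 to 12 in WNK2 trans Sor against WNK2 trans Ctr, and 6 to 9 in the transfection interaction, with 0 throughout in the genotype interaction. The 1 to 2 range reached 2 without WT Ctr replicate 2 or WNK2 trans Sor replicate 4. Over all genes, the groups alone gave 747 calls in WNK2 trans Ctr (2082 in the fit over all groups) and 4824 in WNK2- Sor against WNK2- Ctr (2473). The other isotonic group gave 2499 for WT Sor (4008), and the exchanged interactions 562 (1436) and 906 (5897). The genotype interaction had 944 without WNK2- Ctr replicate 2 and 849 without WNK2- Sor replicate 3. Total counts moved the median of all genes to 0.12 in WT Sor and 0.13 in WNK2 trans Sor against WNK2 trans Ctr.

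No pairing by replicate number was assumed. The median correlation of deviations was 0.0027 over 60 same-number pairs and 0.0020 over pairs of different numbers. Same-number pairs ran from -0.18 to 0.31, and 4 were over 0.1. Of 24 libraries 11 correlated best with their own number, a count for which no chance level was computed. With the replicate block the transfection interaction had 7 HOX calls in place of 8, and the other HOX counts were as without it. Depth limits HOXD11 and HOXC12, whose lowest groups summed to 1 and 3 counts, and the 6 genes too low to test.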
